A study of Homo sapiens with 6 samples.

Results

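The 36 genes described here are the protein-coding genes of the table whose names begin with UBE2 and a further letter, without UBE2L6, out of 58302 genes in all. They encode ubiquitin-conjugating enzymes, or E2s, and close relatives. The libraries were made from polyA RNA of ME180 cells, an epithelial cell line from a cervical cancer, that had carried for 48 h an siRNA against the kinase SGK1 (siSGK1, 3 libraries) or a control siRNA (siControl, 3 libraries). Each group holds biological repeats numbered 2, 3 and 4, and both groups are the same cell line, so the comparison rests on a single line. No siRNA sequence or number is stated in the sources used. All values are levels in FPKM, fragments scaled by gene length and library size, and all changes are siSGK1 minus siControl on the log2(FPKM + 0.5) scale.

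An E2 takes ubiquitin from an activating enzyme (E1) on its catalytic cysteine and, usually together with a ligase (E3), passes it to a substrate. Some E2s start ubiquitin chains and others extend them, and the pair formed by an E2 and its E3 decides which chains are made. A few relatives carry SUMO or NEDD8 in place of ubiquitin, and the UBE2V proteins have the fold but no catalytic cysteine. In dividing cells UBE2C and UBE2S serve the anaphase-promoting complex (APC/C), the ligase that clears cyclins and securin in mitosis.

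The promoters of 3 members that rose are shown because the promoters of many mitotic genes hold a CCAAT box with a cell cycle element (CHR) near it. They were picked for holding a match, UBE2T to both and UBE2S and UBE2E3 to CCAAT alone. Of the other members called higher, a window of UBE2E1 held CCAAT, and no match was found in those of UBE2QL1, UBE2E2 and UBE2N or in another window of UBE2E3. Each window runs from 250 bases before to 50 after a RefSeq transcript start (GRCh38.p14), 5′ to 3′ on the gene's strand, and capitals mark matches to CCAAT, or its reverse complement ATTGG, and to TTTGAA.
UBE2S (chr19:55407739-55408038, minus strand): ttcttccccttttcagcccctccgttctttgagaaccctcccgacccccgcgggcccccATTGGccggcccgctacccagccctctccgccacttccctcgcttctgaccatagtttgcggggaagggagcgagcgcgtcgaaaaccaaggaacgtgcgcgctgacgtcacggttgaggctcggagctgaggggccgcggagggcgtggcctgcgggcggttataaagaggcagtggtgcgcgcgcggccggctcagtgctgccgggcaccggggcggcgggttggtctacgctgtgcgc
UBE2T (chr1:202341887-202342186, minus strand): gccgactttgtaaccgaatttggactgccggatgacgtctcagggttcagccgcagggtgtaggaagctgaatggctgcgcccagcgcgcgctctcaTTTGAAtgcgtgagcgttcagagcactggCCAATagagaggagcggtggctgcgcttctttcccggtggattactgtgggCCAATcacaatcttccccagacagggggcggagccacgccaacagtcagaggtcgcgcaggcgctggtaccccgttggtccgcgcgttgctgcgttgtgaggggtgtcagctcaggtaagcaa
UBE2E3 (chr2:180980110-180980409, plus strand, the more upstream of its windows): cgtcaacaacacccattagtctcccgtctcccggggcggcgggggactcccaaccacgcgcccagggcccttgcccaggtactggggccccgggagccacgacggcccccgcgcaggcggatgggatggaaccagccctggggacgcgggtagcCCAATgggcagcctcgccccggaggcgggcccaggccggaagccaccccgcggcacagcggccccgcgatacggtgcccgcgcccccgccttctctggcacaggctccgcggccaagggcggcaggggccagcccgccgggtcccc

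Of the 36 members, 27 had at least one such window (38 windows) in the RefSeq table, and those without one included UBE2C, UBE2H, UBE2B, UBE2Q1, UBE2V2, UBE2W, UBE2L5P and UBE2Q2L. A CCAAT box, searched as CCAAT on both strands, was found in 31.6% of the member windows and in 34.6% of all 35116 windows. A CHR, searched as TTTGAA or TTCGAA on both strands, was found in 10.5% of the member windows and 16.4% of all windows. Both lay in the same window for UBE2T, UBE2F, UBE2F-SCLY and UBE2U, which is 10.5% of member windows against 6.38% of all windows, and the windows of UBE2F and its readthrough UBE2F-SCLY overlap and hold the same sites. In UBE2T the CHR began 153 bases and the CCAAT boxes 124 and 73 bases before the start (positions -153, -124 and -73). In UBE2S the CCAAT box began at -191 and in UBE2E3 at -96. These are matches of letters in a window and not measured binding. The motifs do not overlap each other in the windows shown.

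The targeted transcript was lower in the knockdown. SGK1 measured 1.58, 1.70 and 1.81 FPKM in siSGK1 replicates 2, 3 and 4, against 3.91, 4.27 and 4.17 FPKM in siControl (log2 change -1.07, SE 0.07, limma adjusted p = 1.88e-05). The library size implied by the deposited scaling was 1.04 to 1.09 times the reads assigned in siSGK1 and 0.952 to 0.967 times in siControl, and mitochondrial genes took 3.50% ± 0.141 of the reads in siSGK1 and 4.25% ± 0.128 in siControl (SD, n = 3 each). Neither pair of ranges overlapped, and their part in the members' values was not tested. Libraries held 28405647 to 35242643 reads assigned to genes in siSGK1 and 27262794 to 27874948 in siControl. The sequenced cells carried epithelial markers: the summed level of 8 of them was 6126 to 7110 FPKM in siSGK1 and 8765 to 9305 FPKM in siControl, where 0 rose and 4 fell (3 rose and 4 fell with TPM scaling, a rescaling by summed level per length). Markers of 5 leukocyte genes summed to at most 0.0951 FPKM in siSGK1 and 0.102 FPKM in siControl. Endothelial markers (4 genes, 1 of them at 0 in every library) summed to 0.710 to 0.903 FPKM in siSGK1 and 1.39 to 1.66 FPKM in siControl. Of 6 fibroblast markers, COL1A1 was the only one with a mean of at least 1 FPKM, and their sum was 4.87 to 5.72 FPKM in siSGK1 and 4.70 to 5.25 FPKM in siControl.

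UBE2C, UBE2S, UBE2T and UBE2QL1 rose most among the members, the UBE2E subfamily and UBE2N rose by less, and UBE2Q1, UBE2W and UBE2J2 fell slightly. Of the 36 members, 30 had a mean level of at least 1 FPKM and were tested, with a gene called at a Benjamini-Hochberg adjusted p below 0.05 over all 11945 tested genes. Among these 30, 8 were called higher (26.7%), 3 lower (10%) and 19 were not called. The 8 include UBE2QL1, which passed the level filter only through the siSGK1 libraries. Among all tested genes 17.9% were called higher and 22.7% lower, and 40.6% were called in either direction, against 36.7% of the members. The share of members that changed was therefore near that of genes in general. The median log2 change was 0.07 over the tested members and -0.006 over all tested genes. The 3 siSGK1 and 3 siControl values did not overlap for 23 of the 30 members (76.7%), as for 53.4% of all tested genes, and 12 of those 23 were not called. At an unadjusted p below 0.05 there were 17 members, and 49.1% of all tested genes. Without siSGK1 replicate 4 the calls were 6 higher and 1 lower, against 14.2% and 19.1% of all tested genes. Without siSGK1 replicate 2, siControl replicate 2 or siControl replicate 3 they were 7 higher and 1 lower. The shares of all tested genes were then 14.05% to 15.1% higher and 17.5% to 21.0% lower. With TPM scaling 47.3% of all tested genes were called higher and 9.80% lower, and with rescaling by total reads 36.1% and 12.9%. Counts under these scalings are to be set beside these shares. Cells are not separated in bulk RNA, so more cells of one cycle phase and more RNA per cell cannot be told apart in any of these values.

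**Figure D1:**
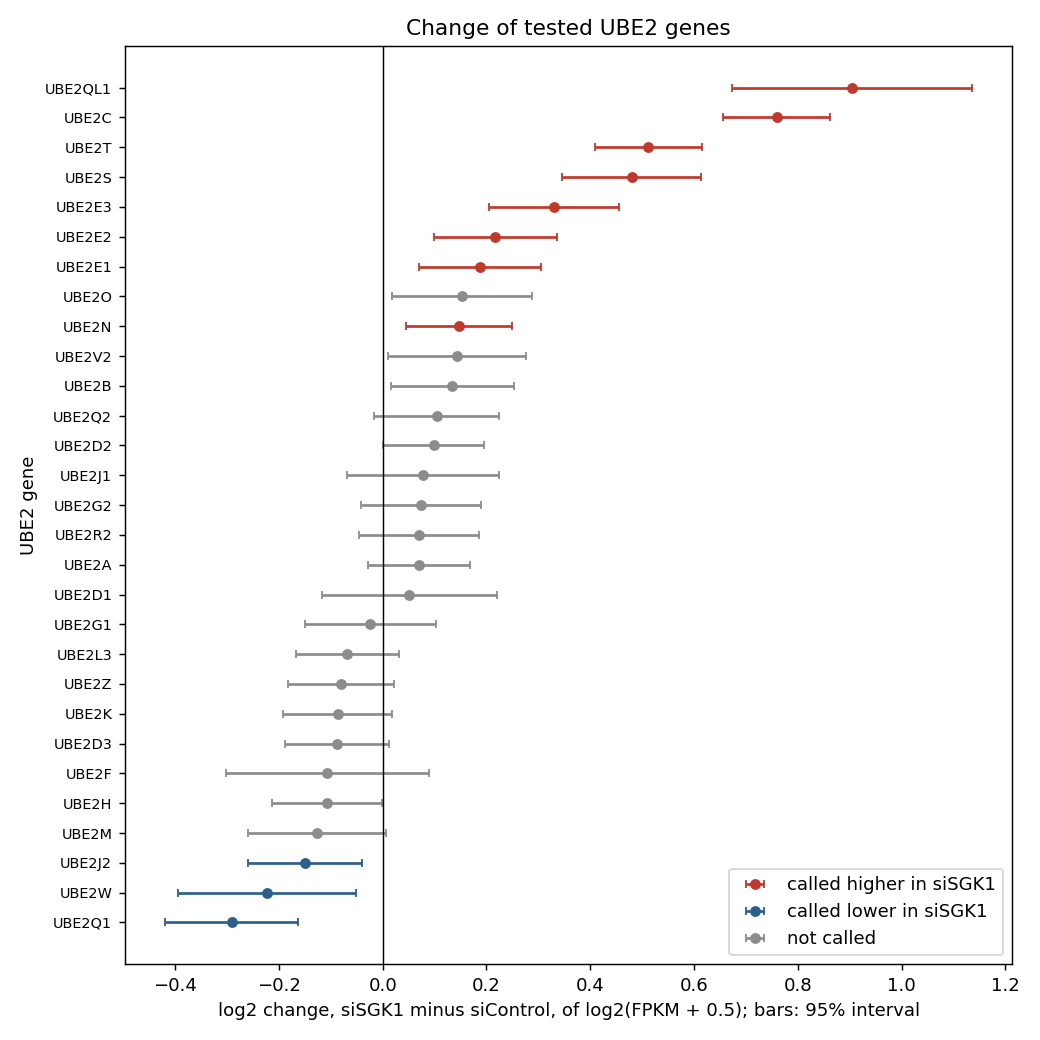
Log2 change (siSGK1 minus siControl, x axis) of tested UBE2 genes (y axis), with 95% intervals from the limma fit. The 8 genes called higher lie between 0.15 and 0.90, the 3 called lower between -0.29 and -0.15, and those not called between -0.13 and 0.15.

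The most abundant members were the APC/C enzymes. FPKM are per kilobase of the gene length in the table, which counts all annotated exons, so genes with long alternative exons are set low. In siSGK1 UBE2C averaged 168 ± 2.93 FPKM and UBE2S 163 ± 6.86 FPKM (SD, n = 3 each), and their ranges overlapped. In siControl UBE2S stood at 117 ± 7.90 FPKM above UBE2C at 98.9 ± 3.95 FPKM, with no overlap. UBE2M, the main NEDD8-conjugating enzyme, came next at 66.3 ± 2.49 FPKM in siSGK1 and 72.5 ± 5.18 FPKM in siControl, then UBE2D2 at 45.7 ± 1.21 FPKM in siSGK1 and 42.6 ± 0.963 FPKM in siControl. UBE2T, at 39.5 ± 1.44 FPKM, was above UBE2L3 (34.4 ± 0.963 FPKM) in siSGK1, whereas in siControl UBE2T, at 27.5 ± 0.640 FPKM, was below UBE2L3 (36.1 ± 0.858 FPKM). From UBE2R2 down to UBE2E1 in the order of means, 6 genes lay between 16.6 and 23.0 FPKM in every library, and neighbours among them overlapped over the 6 libraries. UBE2W, UBE2QL1 and UBE2F were the lowest tested members, at 0.799 to 2.24 FPKM.

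**Figure D2:**
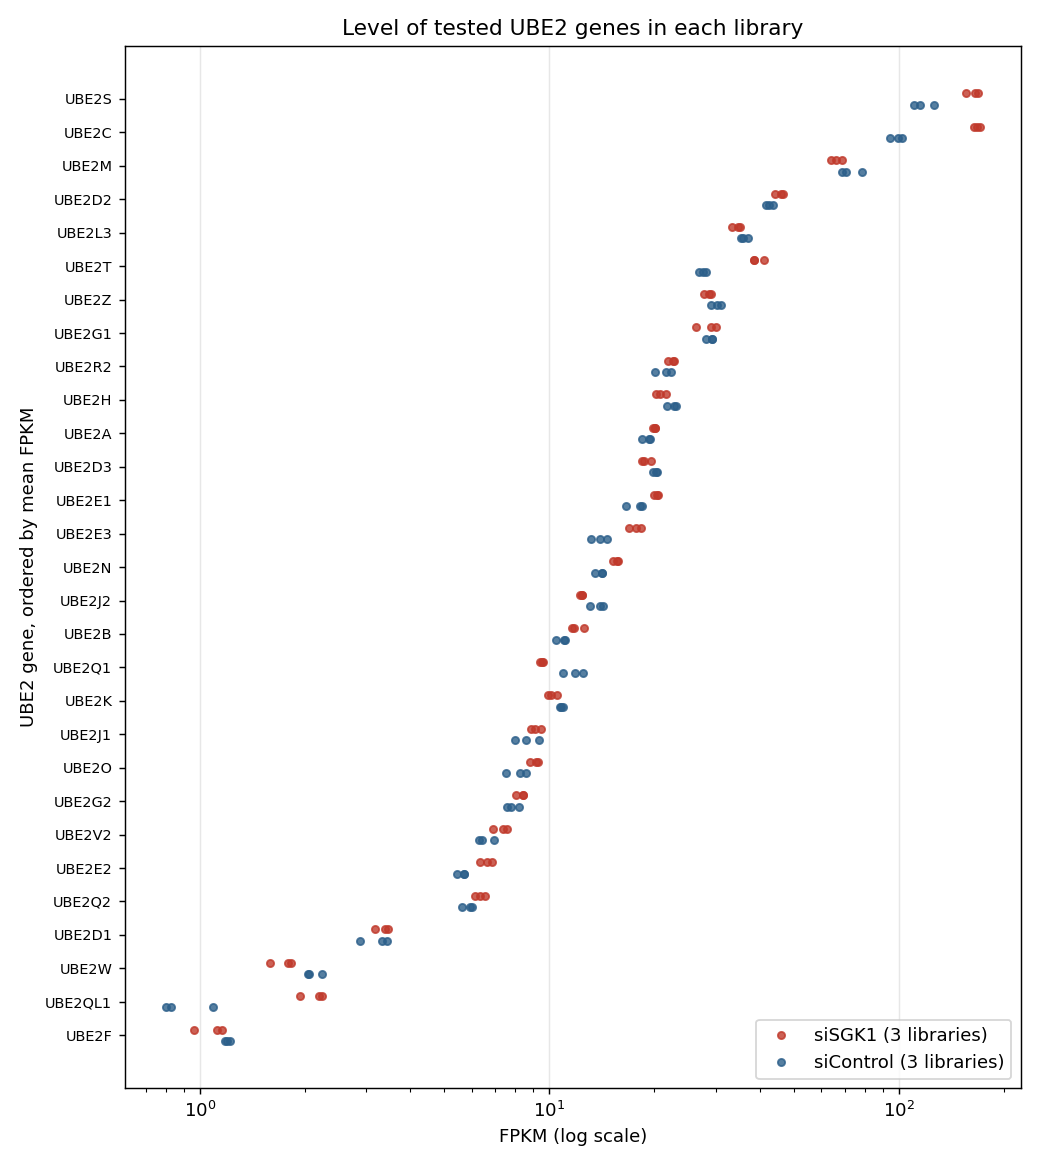
FPKM (x axis, log scale) of tested UBE2 genes (y axis, ordered by mean) in each library, siSGK1 libraries above siControl libraries in each row. UBE2S and UBE2C lie at the top and separate from siControl, and most other genes differ little between groups.

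The APC/C enzymes held the largest shares of the summed level. The 36 members together summed to 812, 832 and 842 FPKM in siSGK1 replicates 2, 3 and 4, against 719, 704 and 682 FPKM in siControl. Without UBE2C, UBE2S and UBE2T, 3 genes set apart after their values were seen, the sum was 458 ± 4.39 FPKM in siSGK1 and 458 ± 7.33 FPKM in siControl (SD, n = 3 each). UBE2C made up 20.2% ± 0.077 of the summed level in siSGK1 and 14.1% ± 0.187 in siControl, and UBE2S 19.7% ± 0.475 in siSGK1 and 16.7% ± 0.711 in siControl. The share of UBE2M was 8.15%, 7.68% and 8.17% in siSGK1 replicates 2, 3 and 4, against 10.9%, 10.01% and 10.1% in siControl. Sums of FPKM weigh abundant genes most and carry the deposited scaling.

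**Figure D3:**
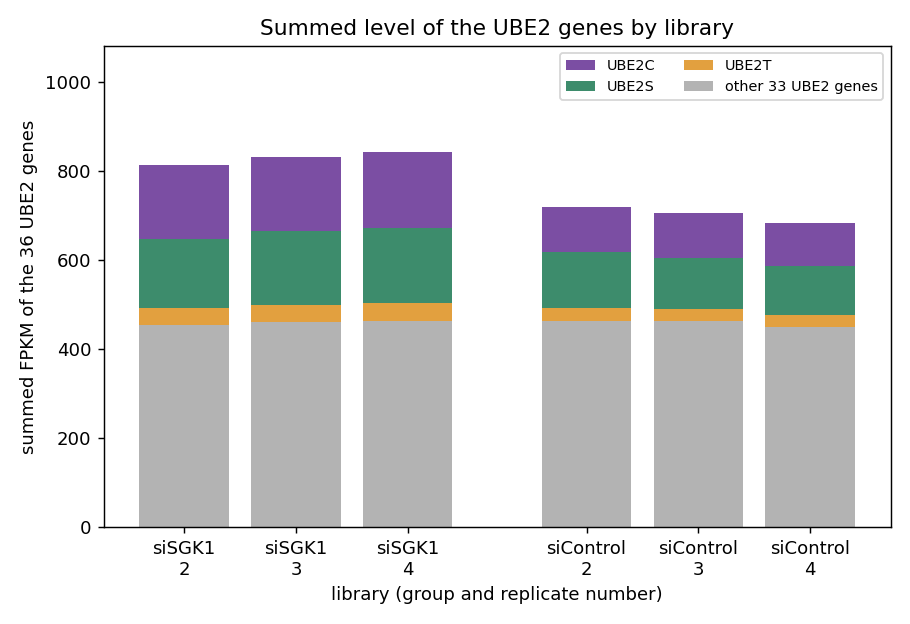
Summed FPKM of the 36 UBE2 genes (y axis) in each library (x axis), stacked as UBE2C, UBE2S, UBE2T and the other 33 genes. The siSGK1 bars reach 812 to 842 FPKM and the siControl bars 682 to 719 FPKM, while the part from the other 33 genes averages 458 FPKM in both groups.

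UBE2C, the E2 that starts chains on APC/C substrates (chromosome 20, 45812576 to 45816957 in the table), measured 165, 167 and 171 FPKM in siSGK1, against 102, 99.7 and 94.6 FPKM in siControl. All siSGK1 libraries were high and the groups lay far apart. UBE2C rose 1.70-fold (log2 change 0.76, SE 0.045, limma adjusted p = 1.39e-05) on 3279 to 8037 reads per library. UBE2S, which extends chains on the same substrates (chromosome 19, 55399745 to 55407777), measured 156, 165 and 169 FPKM in siSGK1, against 126, 115 and 110.4 FPKM in siControl. Its groups did not overlap, and it rose 1.39-fold (log2 change 0.48, SE 0.058, limma adjusted p = 0.000387). The processed pseudogene UBE2SP1, at 8.98 to 9.71 FPKM in siSGK1 and 5.93 to 8.18 FPKM in siControl, resembles UBE2S and may share a few of its reads. Within each library, UBE2C stood higher relative to UBE2S after the knockdown: the log2 ratio was 0.08, 0.02 and 0.01 in siSGK1, against -0.30, -0.21 and -0.22 in siControl. A ratio within a library is not changed by a single scaling factor per library, apart from the effect of the added 0.5. Quantile normalization can change it. Its exact two-sided permutation p was 0.1, the smallest that 3 against 3 libraries allow, and 0.156 after adjustment over the 14 ratios computed, which were chosen after values were seen.

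Nearly every mitosis gene tested rose with these enzymes, and a minority of the APC/C genes did. Of 19 tested genes for the APC/C core, its activators and its inhibitors, 6 rose and 0 fell, with a median log2 change of 0.11. The other 13 were not called. With TPM scaling, where 47.3% of all tested genes were called higher, 13 of the 19 rose and 0 fell. The activator CDC20 rose to 130 ± 8.74 FPKM in siSGK1, against 98.3 ± 3.48 FPKM in siControl (log2 change 0.40). The checkpoint proteins BUB1B and MAD2L1 rose by 0.54 and 0.41 on the log2 scale, and the APC/C subunit ANAPC15 by 0.27. Of 21 tested mitosis genes outside the UBE2 family, 20 rose and 0 fell, and the median log2 change was 0.62. The exception as deposited, named after its value was seen, was KIF20A (log2 change -0.05), and with TPM scaling all 21 were called higher. Their summed level was 770 to 786 FPKM in siSGK1 and 493 to 519 FPKM in siControl. The mitotic kinase AURKB and its partner BIRC5 both had a log2 change of 0.98, above that of UBE2C, CCNA2 (cyclin A2) one of 0.73 and TPX2 (a spindle protein) one of 0.59. The part of these genes' shared movement in the values of UBE2C and UBE2S was not tested. The 3 tested genes whose log2 levels followed UBE2C most closely over the 6 libraries were ODF2 (r = 0.9997), KIFC1 (r = 0.999) and ARHGDIB (r = 0.999). Among the members UBE2T (r = 0.996) and UBE2S (r = 0.983) were closest, on points that share the 2 groups, so any gene that differs between groups scores high.

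UBE2T, the E2 that works with FANCL to monoubiquitinate FANCD2 and FANCI in DNA crosslink repair (chromosome 1, 202331657 to 202341980), measured 38.6, 38.6 and 41.1 FPKM in siSGK1, against 28.1, 27.6 and 26.9 FPKM in siControl. Every siSGK1 value was above every siControl value, and UBE2T rose 1.43-fold (log2 change 0.51, SE 0.045, limma adjusted p = 7.92e-05). Of 6 tested Fanconi partners, 4 rose and 0 fell, with a median log2 change of 0.21. With TPM scaling, where 47.3% of all tested genes were called higher, 6 rose. The ligase FANCL rose to 4.09 ± 0.304 FPKM in siSGK1, against 3.30 ± 0.174 FPKM in siControl. Its substrates FANCD2 and FANCI had log2 changes of 0.35 and 0.25, and FANCA, a core complex subunit, one of 0.18.

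UBE2QL1, a relative of the UBE2Q enzymes (chromosome 5, 6448623 to 6494909), had a large log2 change at a low level. It measured 1.94, 2.20 and 2.24 FPKM in siSGK1, against 0.830, 1.09 and 0.799 FPKM in siControl, which is 246, 314 and 354 reads against 94, 122 and 93. The groups were apart, with a 2.34-fold ratio of mean FPKM (log2 change 0.90, smaller than that ratio because 0.5 is added to each value, SE 0.10, limma adjusted p = 0.000257). Its siControl mean of 0.906 FPKM lay below the level filter, so it was tested through the siSGK1 libraries, where it was high. UBE2Q1 itself (chromosome 1, 154548577 to 154559028) went the other way. It measured 9.40, 9.57 and 9.54 FPKM in siSGK1, against 12.5, 11.8 and 10.96 FPKM in siControl. The siSGK1 values were tightly grouped below all siControl values, and UBE2Q1 fell 0.29 on the log2 scale (SE 0.056, limma adjusted p = 0.00377), to 80.8% of the siControl level. With TPM scaling, which raises the median of all tested genes to 0.19, UBE2Q1 had a log2 change of -0.10 and was not called (adjusted p = 0.179). UBE2Q2 measured 6.12 to 6.54 FPKM in siSGK1 and 5.61 to 6.03 FPKM in siControl, and was not called as deposited (log2 change 0.10, limma adjusted p = 0.151). With total-read and TPM scaling UBE2Q2 was called higher (limma adjusted p = 0.0138 and 0.00528). The log2 ratio of UBE2Q1 to UBE2Q2 was 0.54, 0.52 and 0.60 in siSGK1, against 1.02, 1.01 and 0.81 in siControl, and did not overlap (exact permutation p = 0.1). UBE2Q2L had 3 to 10 reads in siSGK1 libraries and 2 to 4 in siControl libraries, too few to compare.

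All members of the UBE2E subfamily rose. These enzymes carry an extension before the catalytic domain and work with several RING ligases. UBE2E3 (chromosome 2, 180967248 to 181076585) measured 16.9, 18.3 and 17.7 FPKM in siSGK1, against 13.2, 14.6 and 14.0 FPKM in siControl (1.27-fold, log2 change 0.33, SE 0.055, limma adjusted p = 0.00184). UBE2E2 measured 6.36, 6.63 and 6.85 FPKM in siSGK1, against 5.44, 5.71 and 5.71 FPKM in siControl (log2 change 0.22, limma adjusted p = 0.0107). UBE2E1 measured 19.99, 20.5 and 20.3 FPKM in siSGK1, against 16.6, 18.4 and 18.2 FPKM in siControl (log2 change 0.19, limma adjusted p = 0.0188). None of the 3 genes had overlapping groups. The call of UBE2E1 was lost without siControl replicate 2, its lowest library (log2 change 0.14, adjusted p = 0.0576), and when siSGK1 replicate 4 was left out (adjusted p = 0.0566). The log2 ratios of UBE2E3 to UBE2E1 were -0.24, -0.16 and -0.19 in siSGK1, against -0.32, -0.32 and -0.37 in siControl, and did not overlap (exact permutation p = 0.1, the smallest possible, adjusted p = 0.156), while the ratios of UBE2E2 to UBE2E1 overlapped between groups.

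**Figure D4:**
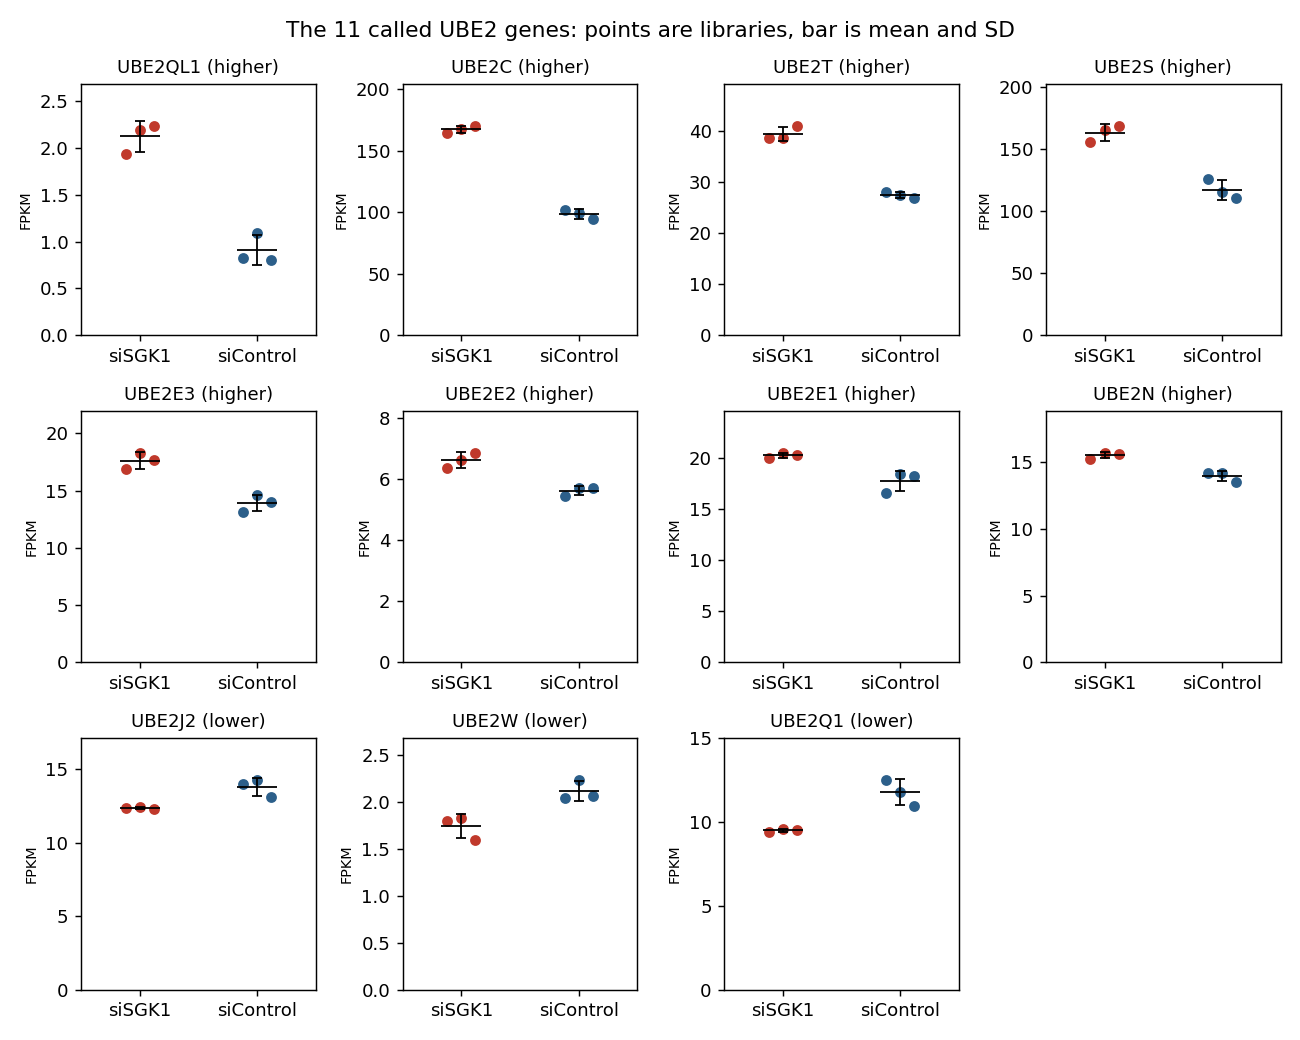
FPKM (y axis, from 0) of the 11 UBE2 genes called different, in siSGK1 (left) and siControl (right), ordered by log2 change. Points are libraries and bars are the mean and SD of 3. UBE2QL1, UBE2C, UBE2T and UBE2S show the widest gaps, and UBE2N and UBE2J2 the narrowest.

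UBE2N, known as UBC13, builds chains together with its noncatalytic partner UBE2V1 or UBE2V2. It measured 15.2, 15.7 and 15.6 FPKM in siSGK1, against 14.2, 14.2 and 13.5 FPKM in siControl, with no overlap, and was called higher (log2 change 0.15, SE 0.045, limma adjusted p = 0.0286). The call did not hold without siControl replicate 3 or 4 (adjusted p = 0.0702 and 0.0840) or without siSGK1 replicate 2 or 4 (adjusted p = 0.0527 and 0.0873). Exons of NUDT4 on the opposite strand cover 39.5% of the exon bases of UBE2N, and no source used here states the strand setting of the counting, so its value is uncertain. UBE2V2 measured 6.90 to 7.56 FPKM in siSGK1 and 6.31 to 6.94 FPKM in siControl (log2 change 0.14, limma adjusted p = 0.0815). With total-read and TPM scaling UBE2V2 was called higher (limma adjusted p = 0.00996 and 0.00424). UBE2V1 was below the filter at 0.636 ± 0.032 FPKM in siSGK1 and 0.539 ± 0.145 FPKM in siControl. It shares 42.9% of its exon bases with the readthrough gene TMEM189-UBE2V1 on the same strand, so its value is uncertain. The pseudogene UBE2V1P2, listed at 7.88 to 12.4 FPKM over the 6 libraries, stood above it. Of 7 tested ligases and adaptors that work with UBE2N, TRAF2 was called higher (15.6 ± 1.08 FPKM in siSGK1 and 11.7 ± 0.558 FPKM in siControl) and 0 were lower. With total-read and with TPM scaling 7 of the 7 were called higher, where 36.1% and 47.3% of all tested genes were.

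UBE2A and UBE2B, the human RAD6 proteins, modify histone H2B and the sliding clamp PCNA. UBE2A measured 19.9 to 20.1 FPKM in siSGK1 and 18.4 to 19.4 FPKM in siControl (log2 change 0.07, limma adjusted p = 0.232). UBE2B measured 11.6 to 12.6 FPKM in siSGK1 and 10.5 to 11.1 FPKM in siControl (log2 change 0.13, limma adjusted p = 0.0687). Neither was called as deposited, although neither overlapped between groups, and UBE2A shares 18.1% of its exon bases with NKRF on the other strand. With quantile normalization, total-read and TPM scaling UBE2B was called higher (limma adjusted p = 0.0362, 0.00319 and 0.00114). UBE2A was called higher with total-read and TPM scaling (limma adjusted p = 0.00573 and 0.00171). Of 8 tested RAD6 partners 2 rose and 0 fell, namely the H2B ligase RNF20 (log2 change 0.20) and the fork remodeller HLTF (log2 change 0.29). With total-read scaling 4 rose, and with TPM scaling 7, where 36.1% and 47.3% of all tested genes were called higher.

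The UBE2D enzymes, which serve many ligases, were not called as deposited. UBE2D2 was the most abundant of them and had a log2 change of 0.10 (limma adjusted p = 0.0974), with siSGK1 values of 44.3, 45.9 and 46.7 FPKM, against 41.8, 43.7 and 42.4 FPKM in siControl. With quantile normalization, total-read and TPM scaling UBE2D2 was called higher (log2 changes 0.17, 0.24 and 0.30, limma adjusted p = 0.0129, 0.0023 and 0.000774). UBE2D1 was called higher with TPM scaling (limma adjusted p = 0.0416). UBE2D3 measured 18.5 to 19.6 FPKM in siSGK1 and 19.8 to 20.3 FPKM in siControl (log2 change -0.09, limma adjusted p = 0.144). The log2 ratio of UBE2D3 to UBE2D2 was -1.23, -1.21 and -1.32 in siSGK1, against -1.02, -1.09 and -1.08 in siControl, and these groups did not overlap (exact permutation p = 0.1). UBE2D1 overlapped between groups at 3.16 to 3.45 FPKM in siSGK1 and 2.88 to 3.43 FPKM in siControl, and UBE2D4, below the filter, at 0.628 to 0.933 FPKM in siSGK1 and 0.748 to 0.965 FPKM in siControl. Reads of these close paralogs, and of UBE2D3 pseudogenes, may be shared.

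Among the membrane and quality-control enzymes UBE2J2 was called lower. UBE2J1 and UBE2J2 sit in the endoplasmic reticulum membrane and UBE2G2 is recruited to it, where they serve degradation of misfolded proteins. UBE2J2 measured 12.4, 12.4 and 12.3 FPKM in siSGK1, against 14.0, 14.3 and 13.1 FPKM in siControl (log2 change -0.15, SE 0.048, limma adjusted p = 0.0360). Its groups were apart, but the call was lost without siControl replicate 2 or 3 (adjusted p = 0.0956 and 0.145) and without siSGK1 replicate 2, 3 or 4 (adjusted p = 0.0819, 0.0510 and 0.102). With total-read scaling it was not called (adjusted p = 0.817), and under TPM scaling its log2 change was 0.05, so its direction depends on the scaling. Without a filter the call of UBE2J2 was also lost (adjusted p = 0.0603). UBE2J1 overlapped between groups (log2 change 0.08, limma adjusted p = 0.362), and was called higher with total-read and TPM scaling (limma adjusted p = 0.0339 and 0.0121). The log2 ratio of UBE2J2 to UBE2J1 was 0.43, 0.37 and 0.45 in siSGK1, against 0.77, 0.58 and 0.58 in siControl, with no overlap (exact permutation p = 0.1). UBE2G2 (8.02 to 8.41 FPKM in siSGK1, 7.59 to 8.20 FPKM in siControl) and UBE2G1 (26.3 to 30.01 FPKM in siSGK1, 28.1 to 29.3 FPKM in siControl) overlapped between groups. With total-read and TPM scaling UBE2G2 was called higher (limma adjusted p = 0.0138 and 0.00429), and UBE2G1 with TPM scaling (limma adjusted p = 0.0457). Of 9 tested ligases and partners of this degradation route, 0 rose and 2 fell, RNF139 and DERL1, by 0.18 and 0.13 on the log2 scale, and with TPM scaling 5 rose and 0 fell.

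UBE2W, which attaches ubiquitin to the amino terminus of proteins, measured 1.79, 1.83 and 1.59 FPKM in siSGK1, against 2.04, 2.23 and 2.06 FPKM in siControl. Its groups did not overlap (log2 change -0.22, SE 0.075, limma adjusted p = 0.0423). The call was lost without siControl replicate 2, 3 or 4 (adjusted p = 0.0664, 0.142 and 0.0690) and without siSGK1 replicate 2 or 4 (adjusted p = 0.0706 and 0.144). It was also lost with total-read and TPM scaling (adjusted p = 0.284 and 0.551) and without a filter (adjusted p = 0.108). The longest annotated 3' UTR of UBE2W holds CTATGCA and TATGCAA, heptamers taken from an earlier search of these data. That 3' UTR is 7882 bases long, the longest among the members. The heptamers overlap in sequence, so a single site can match both. Over 10311 tested genes with a 3' UTR of at least 50 bases, 9.37% held CTATGCA and 11.9% held TATGCAA. These shares take no account of 3' UTR length. Among the other tested members UBE2K, with a 3' UTR of 4358 bases, held both. UBE2B and UBE2G1 held TATGCAA, and none of these members was called as deposited. UBE2Q1, UBE2J2 and the 8 members that rose held neither. Of the other heptamers searched, TCGGAGA was in UBE2G1 and in 2.89% of the tested genes. CGGAGAA was in none of the members and in 3.67% of the tested genes. Because the heptamers come from these same data, the matches are a description. Their part in the fall of UBE2W was not tested.

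The NEDD8 enzymes were not called. Of 10 tested SUMO ligases and proteases, 0 rose and the ligase PIAS3 fell by 0.24 on the log2 scale. With TPM scaling 7 of the 10 were called higher and 0 lower, where the shares of all tested genes were 47.3% and 9.80%. UBE2M measured 63.9 to 68.8 FPKM in siSGK1 and 68.6 to 78.4 FPKM in siControl, which overlapped (log2 change -0.13, limma adjusted p = 0.119). UBE2F, the second NEDD8 enzyme, measured 0.963 to 1.154 FPKM in siSGK1 and 1.18 to 1.22 FPKM in siControl (log2 change -0.11, limma adjusted p = 0.351). UBE2F shares 16.2% of its exon bases with the readthrough UBE2F-SCLY on the same strand, so its value is uncertain. Of 12 tested cullin-RING and neddylation genes 1 rose, CUL1 (log2 change 0.29), and 2 fell, RNF7 (-0.16) and SKP1 (-0.18), while with TPM scaling 6 rose and 0 fell. RNF7 is the RING partner of UBE2F. Both falls lost their sign under TPM scaling (log2 changes 0.05 and 0.01).

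The remaining members served other ligases and were not called as deposited. UBE2R2, which extends chains with cullin ligases, measured 21.9 to 22.7 FPKM in siSGK1 and 20.1 to 22.3 FPKM in siControl. It was called higher with total-read and TPM scaling (limma adjusted p = 0.00561 and 0.00138). UBE2L3, which works with HECT and RBR ligases, measured 33.3 to 35.1 FPKM in siSGK1 and 35.4 to 37.1 FPKM in siControl (log2 change -0.07, limma adjusted p = 0.242). Among 5 tested genes of the ARIH and LUBAC ligases, which take ubiquitin from UBE2L3, RBCK1 rose (log2 change 0.16) and 0 fell (2 rose with TPM scaling). UBE2Z, charged by UBA6, measured 27.7 to 29.1 FPKM in siSGK1 and 29.1 to 31.0 FPKM in siControl (log2 change -0.08, limma adjusted p = 0.189). UBE2H, the E2 of the GID/CTLH ligase, measured 20.2 to 21.6 FPKM in siSGK1 and 21.8 to 23.0 FPKM in siControl (log2 change -0.11, limma adjusted p = 0.0980), and passed without siSGK1 replicate 3 (log2 change -0.13, adjusted p = 0.0450). In that ligase 4 of 10 tested genes fell and 1 rose. The subunits MAEA and RMND5A fell by 0.22 and 0.25 on the log2 scale, and YPEL5 by 0.25, while GID8 had a log2 change of 0.16. With total-read scaling none of the 10 was called lower, and with TPM scaling 4 were called higher and 0 lower.

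UBE2K measured 9.89 to 10.5 FPKM in siSGK1 and 10.7 to 10.97 FPKM in siControl (log2 change -0.09, limma adjusted p = 0.163). UBE2O, a large enzyme that acts as E2 and E3 at once, measured 8.78 to 9.26 FPKM in siSGK1 and 7.51 to 8.60 FPKM in siControl (log2 change 0.15, limma adjusted p = 0.0699). It passed without siControl replicate 4 (log2 change 0.19, adjusted p = 0.0436), with voom on recovered reads (adjusted p = 0.0382), and with total-read and TPM scaling (log2 changes 0.28 and 0.36, adjusted p = 0.00484 and 0.00187). Over the 19 members not called, 95% intervals of the log2 change reached from -0.30 to 0.29 at the widest. Below the filter UBE2L5P, whose description in the table calls it a pseudogene, had 9 to 17 reads in siSGK1 libraries and 6 to 11 in siControl libraries. The readthrough UBE2F-SCLY had 1 or 2 reads in every library. UBE2U was listed at 0 in all 6.

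Upstream of the E2s the changes went both ways. Of 10 tested E1 enzymes 2 rose and 1 fell (5 and 1 with TPM scaling). The SUMO activator subunit SAE1 rose to 87.4 ± 1.72 FPKM in siSGK1, against 75.2 ± 2.10 FPKM in siControl, and the NEDD8 activator subunit NAE1 to 13.3 ± 0.249 FPKM in siSGK1, against 11.1 ± 0.918 FPKM in siControl. UBA7, which activates ISG15, fell to 5.29 ± 0.625 FPKM in siSGK1, against 7.29 ± 0.398 FPKM in siControl (log2 change -0.43). UBE2L6, the ISG15-conjugating enzyme that the naming rule leaves out, measured 50.8, 45.8 and 50.5 FPKM in siSGK1, against 39.99, 41.2 and 35.5 FPKM in siControl (log2 change 0.33, limma adjusted p = 0.00479). Of 10 tested ubiquitin-like modifiers 2 rose and 3 fell, with ISG15 at a log2 change of 1.19, SUMO2 at 0.15 and UFM1 at -0.34 (7 rose and 0 fell with TPM scaling). Of the 4 ubiquitin precursors 3 fell. RPS27A fell by 0.31 on the log2 scale, and UBB had a log2 change of -0.01. Under TPM scaling 0 of the 4 were called lower and 1 higher. Of 8 tested genes with the E2 fold but no UBE2 name 1 rose, TSG101 (log2 change 0.12), and 1 fell, AKTIP (log2 change -0.42), and with TPM scaling 5 rose and 1 fell.

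The number of members called depended on the library scaling, which sets where no change lies. The deposited values center the median gene near 0. There 72.7% of called members were higher (8 against 3), as were 44.2% of all called genes. Rescaled by total reads, the median of all tested genes was 0.12, and 17 members were called higher and 1 lower. Among all tested genes 36.1% were then called higher and 12.9% lower. With TPM the median was 0.19 and 21 members were called higher and 0 lower, beside 47.3% and 9.80% of all tested genes. With quantile normalization 10 were called higher and 3 lower, with UBE2D2 and UBE2B gained. The shares of all tested genes were then 20.9% higher and 19.9% lower. UBE2C, UBE2S, UBE2T, UBE2E3 and UBE2E2 were called higher under each alternative run. The log2 change of UBE2C was 0.76 as deposited, 0.87 with quantile normalization, 0.90 with total reads and 0.96 with TPM. UBE2Q1 lay below the median of all genes in each of these scalings, at -0.29, -0.27, -0.16 and -0.10.

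**Figure D5:**
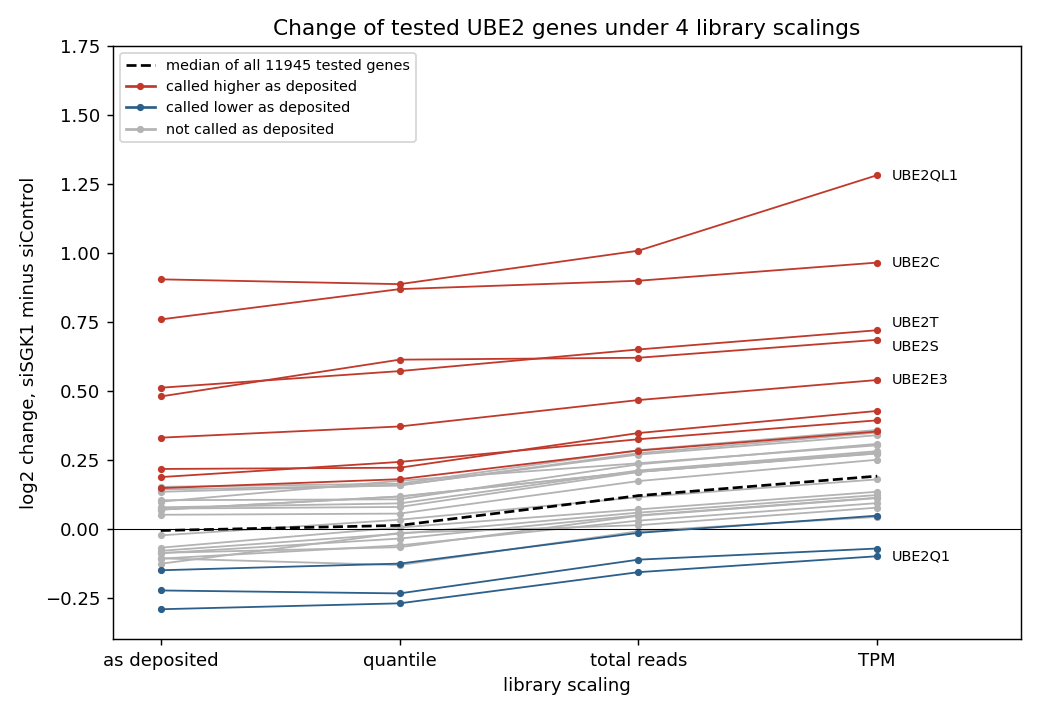
Log2 change (siSGK1 minus siControl, y axis) of tested UBE2 genes under 4 library scalings (x axis), with the median of all 11945 tested genes dashed. UBE2QL1, UBE2C, UBE2T and UBE2S stay above the median in each scaling, and several members slightly below 0 as deposited lie above 0 with TPM or total reads.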

How the data were processed

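The submitters' processing notes list hg19 as genome build and, as tools, featureCounts 1.5.0-p3, HISAT2 2.0.5 and bcl2fastq 2.19. The authors deposited FPKM per gene with names, positions, lengths in bases and biotypes. The positions are those of GRCh38: 97.6% of 58039 identifiers shared with GENCODE 29, and 36 of the 36 members, had the same coordinates. In each library, 100% of the values above 0, once multiplied by gene length, were whole multiples (tolerance 0.001) of what a read is worth, which gave back whole reads and the library size used for scaling. The strand setting and the handling of multi-mapped reads are unstated in these sources.

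The test was limma's trended empirical Bayes fit (limma 3.58.1, R 4.3.3) of log2(FPKM + 0.5), two-sided, on 11945 genes whose FPKM averaged 1 or more, with Benjamini-Hochberg adjustment over all of them. All adjusted p-values are from this test unless another setting is named. Ratios and SGK1 also had exact permutation tests (scipy 1.17.1, Python 3.11.15). The fit was tested on simulated data. Intervals and standard errors rest on the spread between these libraries, which limma draws toward a trend over all tested genes. Libraries of the same group differed by more than counting error (chi-square per degree of freedom 2.99 to 6.98). Other settings were pseudocounts of 0.1 and 1, no filter, a filter of 5 FPKM, 3 other scalings, limma's voom on the recovered reads, a replicate block and leaving out each library. Outside the members, genes named are SGK1, UBE2L6, up to 4 tested genes per list with the smallest p, the 3 most like UBE2C, genes that overlap a member or are its pseudogene, and KIF20A as an exception. The members and lists were chosen with earlier results of these data known. Values of some genes are not reported here.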

Additional observations from a re-analysis of the deposited data

How the results depend on the processing

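SGK1 was called lower in each of the alternatives that tested it (its mean is under the filter of 5 FPKM), at log2 changes of -1.28 to -0.93, and of -1.11 to -1.03 with a library left out. Scaling moved the calls most: 18 members were called with total reads (17 higher, 1 lower) and 21 with TPM (21 higher, 0 lower), against 11 (8 and 3) as deposited. Over the pathway and mitosis lists, 41 genes were higher and 17 lower as deposited, 71 and 5 with total reads and 96 and 2 with TPM. Of all tested genes, 17.9% were higher and 22.7% lower as deposited, 36.1% and 12.9% with total reads and 47.3% and 9.80% with TPM. Without a filter 8 members were higher and 1, UBE2Q1, was lower, against 5.25% and 6.56% of all genes then tested. UBE2J2 and UBE2W lost their calls there. Leaving out a library gave 7 to 11 members called (6 to 8 higher, 1 to 3 lower), with 7 without siSGK1 replicate 4, and 34 to 40 list genes higher and 10 to 16 lower. Of all tested genes, 14.05% to 16.4% were then called higher and 17.5% to 21.0% lower.

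The labels do not say whether equal replicate numbers pair the samples. Deviations from the group means correlated at 0.12, 0.01 and -0.10 for numbers 2, 3 and 4, and at -0.16 to 0.15 between unequal numbers. So few libraries cannot decide whether the samples were paired. With the replicate number as a block 7 members were higher and 1 lower (8 called), and 39 list genes were higher and 11 lower. Of all tested genes, 16.8% were called higher with the block and 21.3% lower. UBE2N, UBE2J2 and UBE2W lost their calls (adjusted p = 0.0682, 0.0665 and 0.0635).

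Signs turned for members with small changes as deposited, the largest that of UBE2J2 (log2 change -0.15). With TPM the log2 changes were UBE2M 0.077, UBE2L3 0.13, UBE2Z 0.12, UBE2G1 0.18, UBE2H 0.093, UBE2D3 0.11, UBE2J2 0.048, UBE2K 0.11 and UBE2F 0.043. Of these, UBE2L3, UBE2Z and UBE2G1 were called higher with TPM (limma adjusted p = 0.0352, 0.0233 and 0.0457). With total reads they were UBE2M 0.013, UBE2L3 0.071, UBE2Z 0.059, UBE2G1 0.11, UBE2H 0.030, UBE2D3 0.049 and UBE2K 0.047. With quantile normalization they were UBE2L3 0.0051 and UBE2G1 0.033. With a library left out, UBE2G1 ranged over -0.063 to 0.030 (above 0 without siSGK1 replicate 2) and UBE2D1 over -0.016 to 0.093 (below 0 without siControl replicate 2). Pseudocounts of 0.1 and 1 changed no member's call. With a library left out, UBE2E1, UBE2N, UBE2J2 and UBE2W lost their calls in at least 1 case, and UBE2O and UBE2H gained one.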
